A study of Mus musculus with 8 samples.

Results

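Mural cells wrap the endothelial tube of blood vessels and comprise vascular smooth muscle cells and pericytes. They were sought here among single cells of whole mouse intervertebral discs at 8 weeks and at postnatal day 10 (P10). A cell counted as mural when 7 mural genes (Rgs5, Notch3, Myh11, Cnn1, Kcnj8, Abcc9 and Higd1b) summed to at least 10 unique molecular identifiers (UMIs). Cells with at least 3 UMIs of the endothelial genes Pecam1 and Cdh5, at least 30 of the nucleus pulposus gene Car3, or at least 10 of the cartilage genes Matn1, Matn3 and Cnmd were left out. This gave 76 mural cells among 13480 cells past the quality filters. At 8 weeks there were 31 of 6481 cells (0.478%, exact 95% interval 0.325 to 0.678%), and at P10 45 of 6999 cells (0.643%, 0.469 to 0.859%). Muscle and blood vessels had been trimmed off before digestion, so these shares describe what survived the dissection and not the disc in the animal.

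All mice carried Tagln-CreERt2, a tamoxifen-inducible Cre recombinase under control of the smooth muscle gene Tagln, and R26tdTomato, a Cre-dependent red fluorescent reporter at the Rosa26 locus. Tamoxifen was given at P5 to both ages, so the reporter marks cells that had Tagln-driven Cre around that day, and their descendants. Lumbar discs L1 to L6 and tail discs T5 to T9 were pooled, digested in 0.25% dispase and 0.25% type II collagenase for 1 hour and passed through a 40 µm strainer. The study asked what Tagln-positive progenitors contribute to the nucleus pulposus, the gel-like core of the disc; no group lacked tamoxifen or Cre. Although 4 samples are listed for either age, their cells sit in 1 matrix per age without sample labels. The ages are thus compared as 1 library each; a difference between ages cannot be told apart from one between libraries and carries no test. Intervals given as ranges are exact 95% intervals that cover counting error only, and cells of 1 library are not replicates.

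Vascular smooth muscle cells ring arteries and arterioles and contract through smooth muscle actin, myosin and their regulators. Pericytes sit singly along capillaries inside the basement membrane, depend on PDGF-B from endothelium acting on the receptor Pdgfrb, and carry the ATP-sensitive potassium channel built from Kcnj8 and Abcc9. Notch3, activated by Jag1 on neighbouring cells, maintains the smooth muscle state. The healthy disc has few vessels, which run mainly at its outer annulus and along the endplates.

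The label was checked against the markers of the rule and of other cell types. Rgs5, a regulator of G-protein signalling that marks mural cells, was found in all 31 cells at 8 weeks, with a lowest, median and highest count of 5, 68 and 219 UMIs, and in all 45 cells at P10, with 10, 45 and 178 UMIs. Levels below are sums over the cells of a set, scaled to 1000000 UMIs of all genes (CPM). At 8 weeks mural cells held 10022 CPM of Rgs5, 1139 of Notch3, 1103 of Myh11, 217 of Kcnj8 and 221 of Abcc9. At P10 they held 6197 CPM of Rgs5, 734 of Notch3, 581 of Myh11, 310 of Kcnj8 and 302 of Abcc9. These genes chose the cells, so their values are a description. The sums of the 7 genes ran over a median of 93 UMIs at 8 weeks (12 to 263) and 60 at P10 (18 to 212). Just under the threshold lay 2 otherwise eligible cells with 9 UMIs at 8 weeks and 2 with 6 UMIs at P10, and the lowest cells inside it had 12 and 14 UMIs at 8 weeks and 18 and 19 at P10. Of the cells that reached 10 UMIs, 36 of 67 at 8 weeks and 48 of 93 at P10 were left out for markers of another type, most of them endothelial (26 and 30).

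Defining markers of other cell types were low in the cells that were kept. Pecam1 and Cdh5, which the rule limits, stood at 0, and so did the endothelial genes Kdr and Tie1, at both ages; the 11 endothelial markers together gave 485 CPM at 8 weeks and 379 at P10, with 0 to 15 and 0 to 11 UMIs per cell. The 8 immune markers gave 74.9 CPM at 8 weeks and 20.5 at P10, with Ptprc and Tyrobp at 0, and the 5 Schwann cell markers 11.8 and 33.3 CPM, with Sox10 at 0. Of 4 adipocyte markers Adipoq and Plin1 were at 0 at both ages, but the list gave 615 CPM at 8 weeks and 1528 at P10. Nearly all of that was Fabp4, a fatty acid binding protein gene, with 591 and 1441 CPM, and endothelial cells of the same libraries held 2512 and 6311 CPM of it; the part of endothelial RNA in the mural values was not tested. Of 8 skeletal muscle markers, 7 were at 0 at 8 weeks and 8 at P10. Markers of chondrocytes gave 343 CPM at 8 weeks and 3119 at P10, and those of tendon-type annulus fibroblasts 51.2 and 1182 CPM. Much of that P10 signal lay in few cells: 5 of the 45 P10 cells, against 1 of the 31 cells at 8 weeks, held at least 100 UMIs of the collagen genes Col1a1 or Col2a1. These 5 cells carried 95.2% of the Col1a1 UMIs and 74.2% of the Col2a1 UMIs of P10 mural cells, and 2 of them had doublet scores of 0.356 and 0.324, the only mural scores above 0.25. Results that touch matrix genes are given with and without these cells. Mural cells were also shallower than the other cells, with median totals of 7259 UMIs at 8 weeks and 7532 at P10, against 14883 and 18364 UMIs in the other cells.

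**Figure D1:**
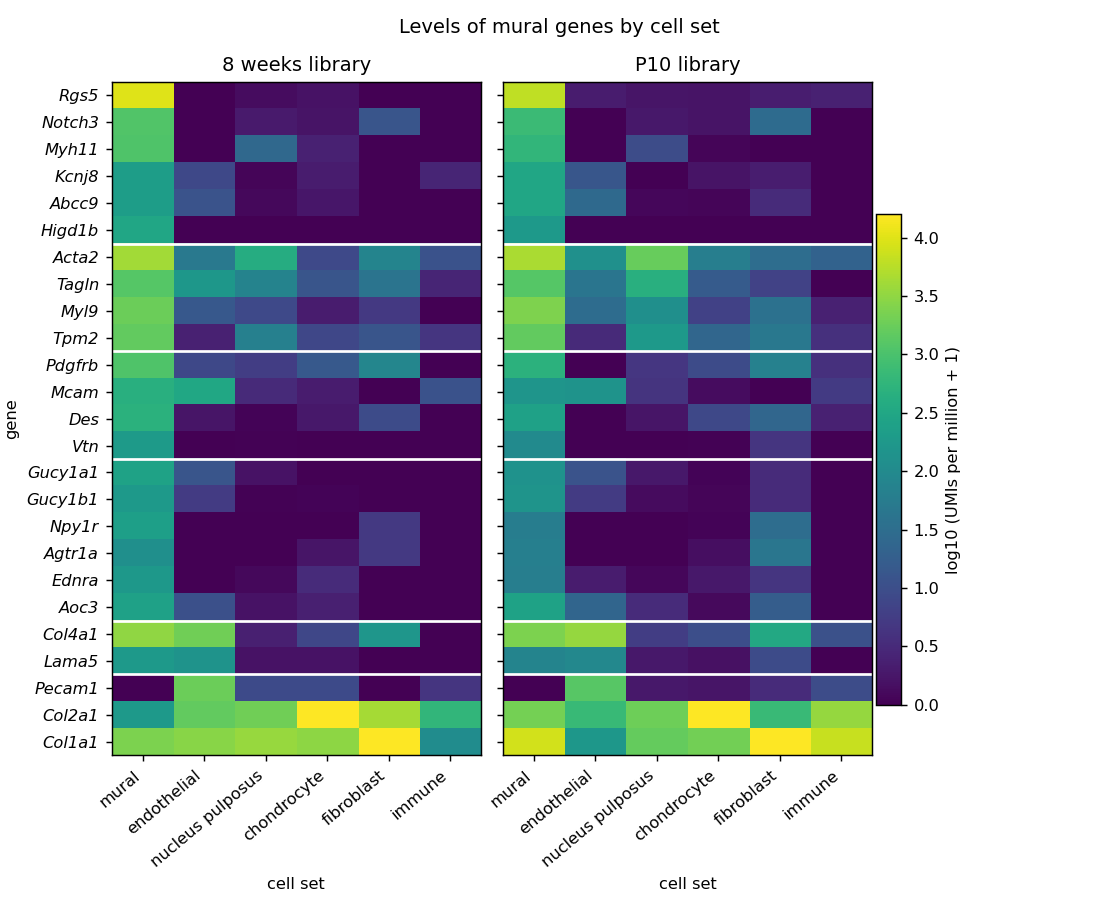
Colour shows the level (log10 of CPM + 1) of each gene (rows) in mural cells and in the comparison cell sets of the same library (columns), for 8 weeks on the left and P10 on the right. Rgs5 stood at 10022 CPM in mural cells at 8 weeks and 6197 at P10; the sets are sums over cells of 1 library each and carry no replicate error.

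The first comparison asked which genes, other than those of the rule, were higher in mural cells than in the remaining cells of the same library. Genes of the rule were left out, and 1998 others had enough counts (at least 50 UMIs in mural cells of both libraries together). Of these, 463 (23.2%) were at least 2-fold higher in mural cells in both libraries and 53 (2.65%) at least 2-fold lower. All 18 counted members of the contractile list were at least 2-fold higher in both libraries, with a median log2 ratio of 3.86 at 8 weeks and 3.96 at P10, against 0.45 and 0.68 over all genes. The minimum was asked of mural cells alone, so genes low in them tended to go uncounted, in the lists too. The 463 higher and 53 lower genes are thus not an even-handed balance. Because the rule also selected Myh11- and Rgs5-rich cells, these ratios describe the cells and carry no test.

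Among contractile genes, Myl9, the regulatory light chain of smooth muscle myosin, was among the 15 named genes. It reached 1773 CPM in mural cells (interval 1613 to 1944) against 5.89 in the other cells at 8 weeks, and 2479 CPM (2326 to 2640) against 17.2 at P10. Smooth muscle actin, Acta2, stood at 4070 CPM against 173 at 8 weeks and 4560 against 146 at P10. Tagln, the gene whose promoter drives the Cre, stood at 1245 CPM (1111 to 1390) against 42.7 at 8 weeks and 1251 (1143 to 1367) against 36.1 at P10. Immune cells, which should lack Tagln, had 1.72 CPM at 8 weeks and 0 at P10, a measure of free RNA in the droplets. Per cell, Tagln ran over 0, 4 and 58 UMIs (lowest, median, highest) at 8 weeks and 0, 4 and 93 at P10, and was found in 23 of 31 and 31 of 45 cells. The contractile programme was thus uneven among mural cells of both ages.

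Many contractile genes are controlled through the CArG box, the site of serum response factor (SRF), so the 250 bases before their start were searched. The RefSeq promoters of 3 contractile genes are printed below (build GRCm38.p6, 5′ to 3′ on the gene's strand) because they show the sites found. Capitals mark a CArG box, or a CArG box with 1 other base among its 6 central bases.
Myl9 promoter, chr2:156775214-156775463, plus strand: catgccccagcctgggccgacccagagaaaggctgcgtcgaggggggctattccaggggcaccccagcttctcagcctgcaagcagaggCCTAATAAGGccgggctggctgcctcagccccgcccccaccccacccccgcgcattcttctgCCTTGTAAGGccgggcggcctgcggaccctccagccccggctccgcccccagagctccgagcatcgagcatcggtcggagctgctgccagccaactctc
Acta2 promoter, chr19:34255374-34255623, minus strand: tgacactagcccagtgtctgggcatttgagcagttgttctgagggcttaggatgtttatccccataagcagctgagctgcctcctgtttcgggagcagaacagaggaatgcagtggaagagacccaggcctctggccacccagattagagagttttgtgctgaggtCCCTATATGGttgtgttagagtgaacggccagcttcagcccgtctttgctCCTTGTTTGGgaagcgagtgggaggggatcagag
Vcl promoter, chr14:20929148-20929397, plus strand: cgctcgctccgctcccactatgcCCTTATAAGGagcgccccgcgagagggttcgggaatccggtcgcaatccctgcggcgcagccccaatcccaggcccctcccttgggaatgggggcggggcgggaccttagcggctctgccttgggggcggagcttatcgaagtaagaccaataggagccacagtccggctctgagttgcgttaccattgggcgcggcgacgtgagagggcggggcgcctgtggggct
In Myl9 the CArG box starts at position -161 from the gene's start and a variant with 1 other base at -99. Acta2 holds variants at -84 and -34, and Vcl, which encodes the focal adhesion protein vinculin, a CArG box at -227. The contractile list was drawn up to hold SRF targets as well as contractile genes, so a higher share of boxes in it is no support. A CArG box, searched on both strands, was found in 4 of its 23 genes with a promoter in the table (17.4%). These were Myl6, Myl9, Srf and Vcl. Of all 32851 promoters 482 (1.47%) held one. List genes were counted by gene and this background by promoter, so the shares are not quite like measures. With 1 other central base allowed, 7 of the 23 held one (30.4%), adding Acta2, Pdlim3 and Synm, against 2823 of all promoters (8.59%). None of the 13 pericyte list genes with a promoter held a CArG box, and 1 (7.69%), Ggt1, held a variant. Of the 15 genes named for mural over other cells, 12 had a promoter in the table, and Filip1l and Myl9 held a CArG box. A match is a description and not a site shown to be bound, and a promoter with no match says only that these letters are absent from that window.

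Beyond the contractile genes, receptors and enzymes of vascular tone were high in mural cells. Of the 32 genes of that list 12 had enough counts. All 12 were at least 2-fold higher in both libraries, with median log2 ratios of 6.52 at 8 weeks and 5.78 at P10. Over all counted genes the medians were 0.45 and 0.68, and 23.2% were higher in both libraries. Gucy1b1 and Gucy1a1, the subunits of the nitric oxide receptor guanylate cyclase, reached 181 and 260 CPM in mural cells at 8 weeks against 0.485 and 1.16 in the other cells, and 148 and 136 CPM at P10 against 0.579 and 0.734. Agtr1a, an angiotensin II receptor, stood at 122 CPM (83.0 to 173) against 0.767 at 8 weeks and 64.0 (41.4 to 94.4) against 1.07 at P10. Npy1r, a neuropeptide Y receptor, had a log2 ratio of 9.01 at 8 weeks and 6.94 at P10. Enpep, the aminopeptidase that cleaves angiotensin II, had 6.76 and 6.29, and the amine oxidase Aoc3 had 7.08 and 7.30. A neuropeptide Y receptor gene and genes of angiotensin and nitric oxide signalling were thus measured in the same small set of cells. The adrenergic receptor genes of the list, Adra1a, Adra1b, Adra1d and Adra2a, did not have enough counts. Adra1d had no UMI in mural cells of either age, and Adra1a none at 8 weeks.

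The other named genes included Olfr558, an odorant receptor gene, with log2 ratios over the other cells of 8.47 at 8 weeks and 8.55 at P10. The vitronectin gene Vtn had 8.56 and 7.35, the connexin 37 gene Gja4 5.87 and 6.32, and the protein C receptor gene Procr 5.76 and 7.15. Nrip2, Naalad2, Kcne4 and Filip1l were also named, at 5.73 or more in each library. These 15 genes were chosen by rank, so their sizes are a description.

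Pericyte markers outside the rule did not all behave as the list's name says. Of 14 counted, 11 were at least 2-fold higher than in the other cells in both libraries, among them the PDGF receptor gene Pdgfrb, with 1119 CPM against 25.1 at 8 weeks and 491 against 15.1 at P10. Ndufa4l2 and Cox4i2, which encode mitochondrial proteins, and Cspg4, the NG2 proteoglycan, were not. Ndufa4l2 stood at 851 CPM against 1702 in the other cells at 8 weeks and 1146 against 1506 at P10, and Cspg4 at 232 against 357 and 128 against 209. Cox4i2 stood at 284 against 660 and 356 against 409 CPM. None of these 3 genes was thus higher in mural cells than in the other disc cells. The Notch ligand Jag1 and the targets Hes1, Heyl and Nrarp, all 4 counted genes of that list, were at least 2-fold higher in mural cells in both libraries. So were 7 of 8 counted transcription factors, such as Tbx2 and Ebf2. Over all counted genes 23.2% were at least 2-fold higher in both libraries and 2.65% lower.

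Most basement membrane genes were high in mural cells, and interstitial matrix genes differed between the libraries. In both libraries 9 of 11 counted basement membrane genes were at least 2-fold higher, against 23.2% of all counted genes. The type IV collagen gene Col4a1 stood at 3148 CPM against 53.8 in the other cells at 8 weeks and 2334 against 93.9 at P10, with a UMI in every mural cell. Sparc, a matrix-binding glycoprotein, was lower at both ages, with 10259 CPM against 30430 at 8 weeks and 12829 against 31740 at P10. Of 18 fibrillar and elastic matrix genes 10 were at least 2-fold higher at 8 weeks, with a median log2 ratio of 1.19 against 0.45 over all genes, and 5 at P10, with 0.13 against 0.68. In both libraries 4 of 18 were higher, a share near the 23.2% of all genes. Of 11 glycolysis and hypoxia genes 0 were higher and 4 (Pgk1, Pgam1, Eno1 and Pkm) were lower in both. Over all counted genes 23.2% were higher in both and 2.65% lower.

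Smooth muscle and pericyte markers divided the mural cells. A cell with more UMIs of Myh11 and Cnn1 than of Kcnj8, Abcc9 and Higd1b was called smooth muscle-marked, and one with fewer pericyte-marked. At 8 weeks 18 cells were smooth muscle-marked and 13 pericyte-marked; at P10 14 were smooth muscle-marked, 30 pericyte-marked and 1 had equal counts. Since 5 cells at 8 weeks and 8 at P10 lay within 2 UMIs of the border, these are ranges and not cell types. Over both libraries 692 genes had enough counts; 23 (3.32%) were at least 2-fold higher in smooth muscle-marked cells at both ages, and 23 (3.32%) at least 2-fold lower. These counts include 4 genes of the division itself, Myh11 among the higher and Kcnj8, Abcc9 and Higd1b among the lower ones.

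Contractile genes were higher in the smooth muscle-marked cells. At 8 weeks 7 of 13 counted list members were at least 2-fold higher (Acta2, Tagln, Myl9, Tpm1, Tpm2, Mylk and Flna) and 0 lower, with a median log2 ratio of 1.24 against 0.09 over all genes and 9.25% of all genes higher. At P10 7 of 15 were higher and 1, Vcl, lower, with a median of 0.83 against -0.02 and 5.61% of all genes higher. Tagln reached 2079 CPM in smooth muscle-marked against 378 in pericyte-marked cells at 8 weeks (log2 2.46, interval 2.01 to 2.94), and 2883 against 469 CPM at P10 (2.62, 2.32 to 2.93). Acta2 reached 6036 against 2025 CPM at 8 weeks and 8248 against 2825 at P10, so pericyte-marked cells held it as well. Rgs5 differed little, with 9584 against 10478 CPM at 8 weeks and 5108 against 6683 at P10.

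The genes named for the smooth muscle-marked cells went beyond the contractile apparatus. They were ranked over cells of both libraries summed, so some, such as Lama5 with 46 UMIs at 8 weeks and 30 at P10, had fewer than 50 UMIs in 1 or both libraries. Igfbp5, an insulin-like growth factor binding protein, stood at 2581 against 129 CPM at 8 weeks and 1454 against 237 at P10. Crispld2 had 727 against 121 CPM and 2217 against 221 CPM. Actg2, enteric smooth muscle actin, was at 301 CPM against 0 at 8 weeks, all of it in 1 cell, and at 562 against 22.9 CPM at P10 in 11 cells. Lama5, a laminin alpha chain of the vessel basement membrane, had log2 ratios of 2.19 (1.07 to 3.50) and 4.72 (2.71 to 7.84). Pi15, Nrip2 and Rcan2 completed the list. Pi15 had no UMI in pericyte-marked cells, and against 3 counts over that group it was at least 8.66-fold higher at 8 weeks and at least 16.8-fold higher at P10.

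Several matrix genes, and Cyp26b1, were higher in the pericyte-marked cells. Mgp, an inhibitor of calcification, stood at 1051 CPM in smooth muscle-marked against 6621 in pericyte-marked cells at 8 weeks, and 1012 against 5218 at P10. Cyp26b1, which degrades retinoic acid, had 124 against 530 CPM and 40.2 against 523 CPM. Cygb, the gene of cytoglobin, had 456 against 1302 and 112 against 805 CPM. Of the pericyte markers outside the rule 3 of 10 at 8 weeks (Cox4i2, Vtn and Steap4) and 6 of 11 at P10 (Pdgfrb, Des, Art3, Ebf1, Steap4 and Rgs4) were at least 2-fold lower in smooth muscle-marked cells, and 0 higher; Pdgfrb had 819 against 1430 CPM and 257 against 599 CPM. Cited2, Plxdc2 and Art3, each with fewer than 50 UMIs at 8 weeks, were also named, with log2 ratios of -2.72, -3.91 and -2.78 at 8 weeks and -2.70, -1.80 and -1.60 at P10. Of the fibrillar and elastic genes 9 of 16 at 8 weeks and 10 of 18 at P10 were at least 2-fold lower in smooth muscle-marked cells, where 6.17% and 9.62% of all genes were lower. Col3a1 had 3648 against 8044 CPM at 8 weeks and 530 against 1542 at P10, and Col4a1 1662 against 4693 and 1317 against 2832. Elastin, Eln, went the other way with 325 against 121 CPM at 8 weeks and 1478 against 279 at P10. Col2a1 and Agt were also named, with log2 ratios of -2.12 and -2.73 at P10; at 8 weeks, with 47 and 2 UMIs, they were 0.38 (-0.51 to 1.29) and -0.06 (-6.35 to 6.24). The Col2a1 value at P10 moves with the collagen-rich cells, 4 of 5 of which were pericyte-marked.

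The second question was how many mural cells carried the lineage reporter. The deposited matrices of added sequences hold TDT, the tdTomato sequence, and WPRE4, named as such in the files; a WPRE element lies behind the tdTomato of common Rosa26 reporter alleles, though the labels do not name the allele. TDT gave few counts in mural cells, 13 UMIs (51.2 CPM) at 8 weeks and 12 UMIs (30.7 CPM) at P10. WPRE4 gave 903 UMIs (3557 CPM, 3329 to 3797) at 8 weeks and 1304 UMIs (3336 CPM, 3158 to 3523) at P10. CRE and EGFP had 0 UMIs in mural cells. Taking 3 cells as the limit that a count of 0 allows, 0 of 31 cells at 8 weeks allows a share with a UMI of up to 9.68%, and 0 of 45 at P10 of up to 6.67%. This says little of which cells express CRE, since it was found in 4 of 6481 cells at 8 weeks and 7 of 6999 at P10.

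WPRE4 split the mural cells into a high and a low set. The lowest, median and highest counts per cell were 0, 23 and 120 UMIs at 8 weeks and 0, 23 and 140 UMIs at P10. At 8 weeks 9 cells had 0 UMIs, 6 had 1 to 4, no cell had 5 to 19, and 16 had 20 or more. At P10 13 cells had 0 UMIs, 6 had 1 to 4, 1 had 5 to 9, 1 had 10 to 19, and 24 had 20 or more. With a threshold of 10 UMIs, chosen after these counts were seen, 16 of 31 mural cells at 8 weeks (51.6%, 33.1 to 69.8%) and 25 of 45 at P10 (55.6%, 40.0 to 70.4%) carried WPRE4. The intervals overlap, and the share moved by less than them at a threshold of 20 UMIs (51.6% and 53.3%).

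Endothelial cells, chondrocytes and fibroblasts seldom reached that threshold, although their totals were deeper than those of mural cells. Endothelial cells did so in 5.56% at 8 weeks and 6.67% at P10 (median totals of 13106 and 11311 UMIs), and chondrocytes in 0.223% and 0.444%. Fibroblasts did so in 1 of 11 cells at 8 weeks (9.09%) and 2 of 60 at P10 (3.33%). Immune cells, which should lack the reporter, did so in 0 of 82 cells at 8 weeks, which by the same limit of 3 cells allows a share of up to 3.66%, and 0 of 143 at P10, which allows up to 2.10%. Their WPRE4 levels were 53.3 and 69.0 CPM, a measure of free RNA in these droplets. Immune cells were shallower than mural cells, with median totals of 6604 and 4074 UMIs, so their shares are not at matched depth. Nucleus pulposus cells were like mural cells in this readout, with 58.2% and 68.6% of cells at 10 UMIs or more and levels of 2569 and 2761 CPM. Those cells were deeper (median totals of 15503 and 16728 UMIs), so the 2 shares are not at matched depth.

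**Figure D2:**
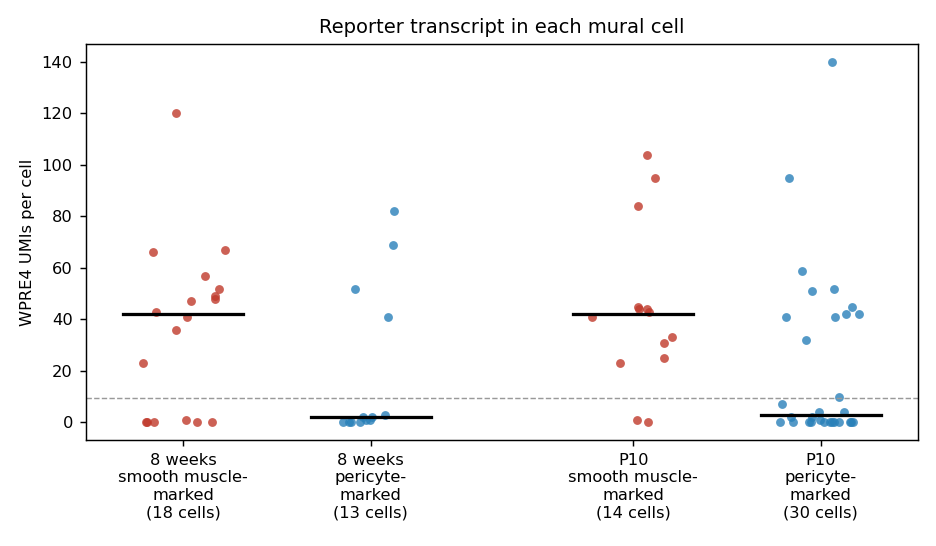
WPRE4 UMIs per cell in mural cells, split into smooth muscle-marked and pericyte-marked cells of 8 weeks and of P10; each point is 1 cell, black bars are medians and the dashed line marks the threshold of 10 UMIs. At 8 weeks no cell lay between 5 and 19 UMIs.

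The WPRE4-carrying share was higher in smooth muscle-marked cells in both libraries. At 8 weeks it was 12 of 18 (66.7%, 41.0 to 86.7%) in smooth muscle-marked against 4 of 13 (30.8%, 9.09 to 61.4%) in pericyte-marked cells. At P10 it was 12 of 14 (85.7%, 57.2 to 98.2%) against 12 of 30 (40.0%, 22.7 to 59.4%). Median counts were 42 against 2 UMIs at 8 weeks and 42 against 3 UMIs at P10. The intervals of the 2 sets overlap at both ages, cells of 1 library are not replicates, and the difference carries no test. Pericyte-marked cells with the reporter were present at both ages.

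**Figure D3:**
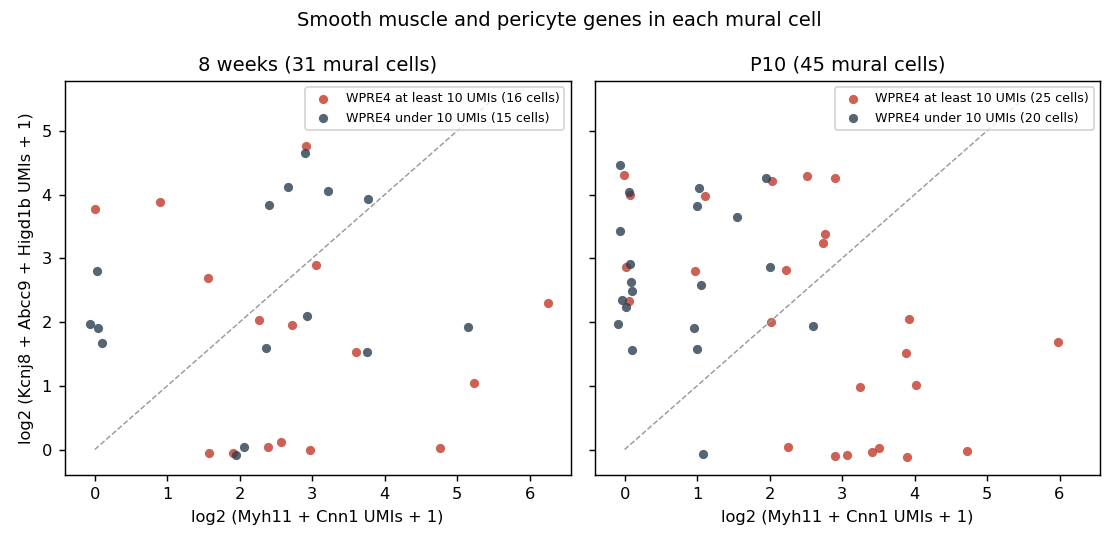
Each point is 1 mural cell, placed by its UMIs of Myh11 and Cnn1 (horizontal axis) and of Kcnj8, Abcc9 and Higd1b (vertical axis), both as log2 of count + 1 with a small shift so that points do not hide each other, for 8 weeks on the left and P10 on the right. Red cells held at least 10 UMIs of WPRE4 (16 at 8 weeks and 25 at P10), and cells below the dashed line of equal counts are smooth muscle-marked (18 at 8 weeks and 14 at P10).

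Mural cells with at least 10 UMIs of WPRE4 were then compared with the others, a contrast also chosen after the data were seen. Over both libraries 694 genes had enough counts; 5 (0.72%) were at least 2-fold higher in the carrying cells at both ages and 0 (0.0%) at least 2-fold lower. The 5 were Acta2, Myl9, Igfbp5, the actin-depolymerizing factor gene Dstn and the laminin receptor gene Bcam, of which Dstn and Bcam were picked out after their values were seen. Acta2 had 5807 against 2128 CPM at 8 weeks and 6669 against 1805 at P10, Dstn 1015 against 384 and 764 against 301, and Igfbp5 1948 against 743 and 926 against 283. Tagln had 1605 against 843 CPM at 8 weeks (log2 0.93) and 2065 against 189 at P10 (log2 3.45). Myl9 had 2500 against 960 and 3312 against 1392 CPM. The contractile list had 2 of 13 members at least 2-fold higher at 8 weeks, where 3.21% of all genes were higher and 5.14% lower, and 7 of 15 at P10, where 5.11% were higher and 4.23% lower; 0 members were at least 2-fold lower at either age.

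Within the same marker class the summed level of Acta2 was again higher in the carrying cells. At 8 weeks Acta2 was 7417 CPM in 12 carrying against 3246 in 6 other smooth muscle-marked cells, and 2868 in 4 carrying against 1506 in 9 other pericyte-marked cells. At P10 it was 9127 in 12 against 2574 in 2 cells and 4369 in 12 against 1721 in 18 cells. Tagln behaved alike in 3 of these 4 pairs: 696 against 182 CPM in pericyte-marked cells at 8 weeks, and at P10 3265 against 419 CPM in smooth muscle-marked and 898 against 164 CPM in pericyte-marked cells. In smooth muscle-marked cells of 8 weeks it was 2103 against 2032 CPM. The current level of Tagln thus went with the reporter in pericyte-marked cells of both ages, and in the smooth muscle-marked cells of P10, of which 2 lacked it. Of 6 counted inflammatory genes 5 were at least 2-fold lower in the carrying cells at 8 weeks (Ccl2, Cxcl1, Il6, Icam1 and Nfkbia) and 0 higher. At P10 Ccl2 was higher and Cxcl10 lower. Over all genes 5.14% were lower and 3.21% higher at 8 weeks, and 4.23% and 5.11% at P10. These sums lean on few cells: 1 mural cell of 8 weeks held 451 of the 1376 UMIs of the whole inflammatory list. The median cell held 14. Ccl2 had a log2 ratio of -4.72 at 8 weeks and 1.15 at P10; this difference between ages was not tested.

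The third comparison set mural cells of 8 weeks against those of P10. Of 2004 genes with enough counts 230 (11.5%) were at least 2-fold higher at 8 weeks and 144 (7.19%) at least 2-fold lower, with a median log2 ratio of 0.02. Ages differed in the mix of cells as well, since 18 of 31 cells at 8 weeks and 14 of 45 at P10 were smooth muscle-marked; the values within each marker class are given for the main genes. In smooth muscle-marked cells alone 118 genes were higher and 90 lower, and in pericyte-marked cells alone 96 were higher and 153 lower, so the balance turned there. It also turned when the totals were taken without abundant genes, with 173 higher and 236 lower.

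Over all mural cells, whose mix of marker classes differed by age, the contractile genes stood at like levels at both ages. Tagln had a log2 ratio of -0.01 and Acta2 of -0.16, and the 18 counted list members had a median of 0.01. Of these, 3 were at least 2-fold higher at 8 weeks and 0 lower, where 11.5% of all genes were higher and 7.19% lower. Within each marker class the summed list was lower at 8 weeks. It stood at 25405 against 30036 CPM in smooth muscle-marked cells and 10736 against 13611 in pericyte-marked cells. Tagln had 2079 against 2883 and 378 against 469 CPM, and Acta2 6036 against 8248 and 2025 against 2825. Flna, like Sncg below, went the other way, with 1252 against 1020 and 530 against 443 CPM. Sncg, gamma-synuclein, was found in 29 of 31 cells at 8 weeks and 13 of 45 at P10, at 682 against 81.9 CPM (log2 3.06, 2.51 to 3.65). It was higher in smooth muscle-marked (2.19) and pericyte-marked cells (3.86) alike, and had 0 UMIs in immune cells at both ages. Pdlim3, an actinin-binding LIM protein, and Vcl had 1.96 and 1.17.

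Matrix genes differed in both directions. Timp3, an inhibitor of metalloproteinases, ran over 2, 23 and 274 UMIs per cell (lowest, median, highest) at 8 weeks and 0, 5 and 40 at P10. Its level was 4664 CPM at 8 weeks against 824 at P10 (log2 2.50, 2.32 to 2.68), with 3.66 in smooth muscle-marked and 2.53 in pericyte-marked cells, against 0.09 in endothelial cells. Collagen III, Col3a1, ran over 0, 19 and 220 UMIs at 8 weeks and 0, 7 and 50 at P10, or 5803 against 1203 CPM (2.27, 2.12 to 2.42). The cells of both ages overlap in both genes, with the highest cells at 8 weeks. Of 18 fibrillar and elastic genes, 7 were at least 2-fold higher at 8 weeks (Col3a1, Col5a1, Col5a3, Col6a3, Fn1, Loxl2 and Postn) and 6 at least 2-fold lower (Col1a1, Col1a2, Eln, Mfap2, Bgn and Dcn). Over all counted genes 11.5% were higher and 7.19% lower.

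The lower matrix genes split by whether the collagen-rich cells carried them. Col1a2 stood at 1785 CPM at 8 weeks against 9393 at P10 (log2 -2.40), but its median cell held 9 UMIs at 8 weeks and 4 at P10, and the highest 71 and 1599. Col1a1 had -1.80, with medians of 8 and 3 UMIs. Without the 1 and 5 collagen-rich cells, Col1a2 had a log2 ratio of 1.16 (1612 against 720 CPM) and Col1a1 of 2.06 (1966 against 471 CPM), so both directions turned round. Dcn had 0.04 and Col11a1 0.61 without them, against -4.24 (-6.54 to -2.64) and -3.20 with them, and the tendon genes Fmod and Tnmd -1.13 and -1.55 against -4.46 and -4.69. The fibrillar and elastic list then had 10 of 16 members at least 2-fold higher and 1 lower, against 11.1% of all genes higher and 7.17% lower. The cartilage collagens were also high in P10 cells that should lack them: Col2a1 stood at 185 CPM in mural cells of 8 weeks against 2111 of P10 (log2 -3.51), and at 574 against 3444 CPM in immune cells. Immune cells likewise held 110 CPM of Col1a1 at 8 weeks against 7054.5 at P10, and 162 against 7695 CPM of Col1a2. The part of free RNA and of doublets in these P10 values was not tested. Elastin was lower at 8 weeks in both marker classes, with -2.19 in smooth muscle-marked and -1.21 in pericyte-marked cells, and 225 against 658 CPM in all.

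**Figure D4:**
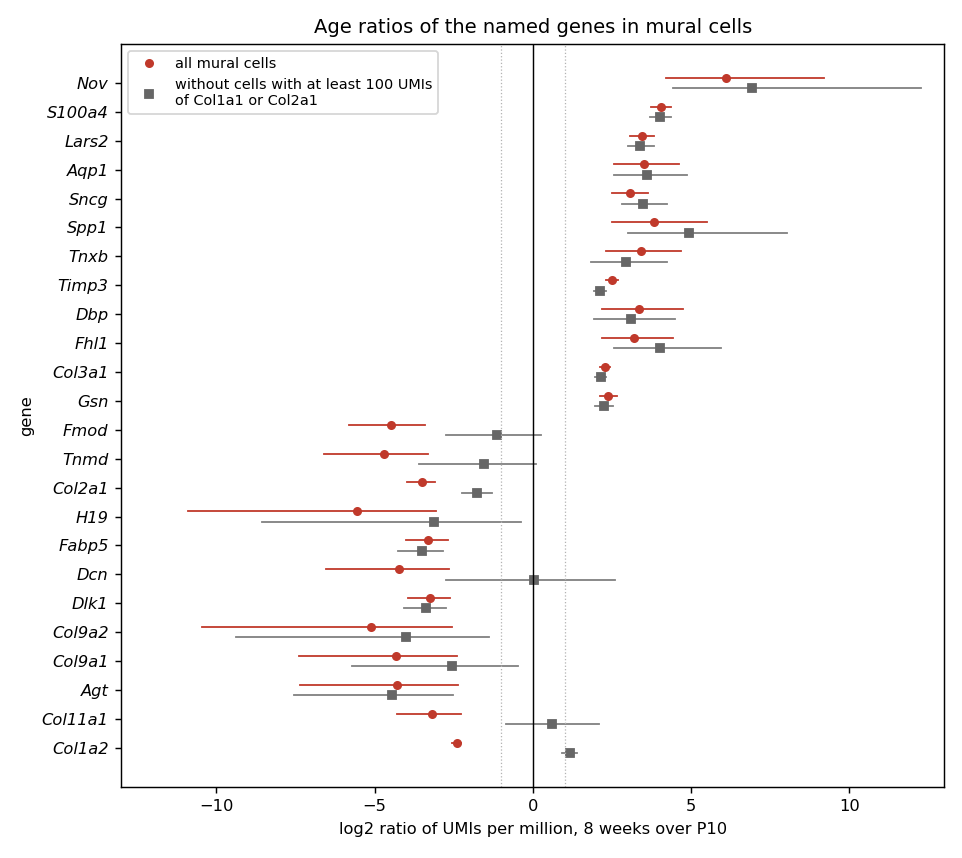
Log2 ratio of 8 weeks over P10 in mural cells for the 12 highest and 12 lowest named genes, over all mural cells (red circles) and without the collagen-rich cells (grey squares), with exact 95% intervals that cover counting error only; dotted lines mark a 2-fold difference. Col1a2 lay at -2.40 with all cells and at 1.16 without the collagen-rich cells.

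Outside the matrix, S100a4, a calcium-binding protein gene, was among the genes highest at 8 weeks, with 0, 12 and 170 UMIs per cell at 8 weeks and 0, 0 and 24 at P10. Its level was 3983 against 243 CPM (log2 4.03, 3.73 to 4.35), and immune cells moved with it, at 3341 against 929 CPM. Nov (CCN3) was found in 20 of 31 cells at 8 weeks and 2 of 45 at P10, with 90 and 2 UMIs (log2 6.11, 4.22 to 9.18), and was at 0 in immune cells. Aqp1, a water channel gene, had 3.51 (2.55 to 4.63) in 9 and 5 cells, with 1420 against 76.0 CPM in immune cells. Spp1 had 3.82 but 1671 against 791 CPM in immune cells, above its 181 against 12.8 CPM in mural cells. Lars2 and the clock gene Dbp had 3.44 and 3.34, and 3.55 and 3.50 in the other cells of the libraries, about as in mural cells. Gsn, gelsolin, which severs actin filaments, had 2.39 (1871 against 358 CPM), Tnxb 3.40 and Fhl1 3.21.

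Imprinted growth genes were mostly lower at 8 weeks. Dlk1, an imprinted Notch-related ligand, was found in 6 of 31 cells at 8 weeks and 34 of 45 at P10, with 0, 0 and 12 UMIs per cell against 0, 3 and 48. It stood at 86.7 against 821 CPM (log2 -3.24, -3.94 to -2.62), and the 40 P10 cells without the collagen-rich ones kept 964 CPM. Meg3, a long non-coding RNA of the same imprinted locus, ran over 0, 7 and 45 UMIs at 8 weeks and 3, 22 and 91 at P10 (1154 against 3336 CPM, -1.53). Of 5 counted imprinted growth genes 4 were at least 2-fold lower, against 7.19% of all genes, with a median of -1.53. Cdkn1c, a cell cycle inhibitor, had -1.35. Without the collagen-rich cells Cdkn1c had -0.78 (-1.80 to 0.16), fewer than 50 UMIs were left, and 2 of 3 counted genes were at least 2-fold lower. H19 had 1 UMI at 8 weeks and 73 at P10 (-5.57, -10.89 to -3.04), in 12 of 45 cells. Without the collagen-rich cells it had -3.13 (-8.55 to -0.37), with fewer than 50 UMIs left. Fabp5, a fatty acid binding protein gene, ran over 0, 0 and 3 UMIs against 0, 3 and 41 (82.7 against 819 CPM, -3.31), while immune cells had 628 against 248 CPM. Angiotensinogen, Agt, had 2 against 60 UMIs (-4.28, -7.36 to -2.37).

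Receptors of vascular tone went both ways. At 8 weeks the endothelin receptor gene Ednra was at 173 against 61.4 CPM at P10 (1.50, 0.75 to 2.28), and its relative Ednrb at 94.6 against 328 CPM (-1.79, -2.49 to -1.16). Ednrb was lower in smooth muscle-marked (-1.02) and pericyte-marked cells (-3.35). The vasopressin receptor gene Avpr1a had -1.51 and Npy1r 1.98, and the cyclic nucleotide phosphodiesterases Pde3a and Pde5a had 1.49 and 1.74. Thus 4 of 12 counted genes of the list were at least 2-fold higher and 2 lower, where 11.5% of all genes were higher and 7.19% lower. Of 14 pericyte markers outside the rule 3 were higher and 0 lower: Pdgfrb with 1119 against 491 CPM (1.19), the adhesion molecule gene Mcam (1.50) and the metalloreductase gene Steap4 (1.18).

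Of 4 counted Notch genes 2 and of 8 transcription factors 3 were at least 2-fold higher at 8 weeks, and 0 lower. Over all counted genes 11.5% were higher and 7.19% lower. Jag1 stood at 232 against 64.0 CPM (1.86, 1.16 to 2.60) and Hes1 at 528 against 166 (1.67, 1.23 to 2.12). Heyl had 0.52 and Nrarp -0.99, and without the collagen-rich cells Nrarp had -1.07, past 2-fold lower. Hes1 had 2.90 in smooth muscle-marked and 0.42 in pericyte-marked cells, and 1.79 in the other cells of the libraries. Nr2f2, a venous fate factor, had 1.81, with 3.96 in smooth muscle-marked and 0.84 in pericyte-marked cells, and Ebf2 and Prrx1 had 1.19 and 1.18. In endothelial cells Jag1 had -1.06, and this difference was not tested.

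The lists below stand against 11.5% of all counted genes at least 2-fold higher at 8 weeks and 7.19% lower. Of 11 basement membrane genes 1, Lama5 (1.24), was higher, near the share of all genes. Of 8 growth signal genes Igfbp5 (1.09) was higher and the sphingosine-1-phosphate receptor gene S1pr3 (-1.31) lower; Igfbp5 had 0.83 in smooth muscle-marked cells but -0.88 in pericyte-marked cells. Of 11 inflammatory genes, with a median of 0.66, 5 were higher (Ccl2, Cxcl1, Il34, Icam1 and Tnfaip3) and of 21 early response and heat shock genes 5 (Fos, Fosb, Zfp36, Hspa1a and Hspa1b). Fos had 4.79 in smooth muscle-marked and 0.05 in pericyte-marked cells, and 1.40 in the other cells of the libraries. Ccl2 had 0 UMIs in 20 of 31 cells at 8 weeks and up to 169 in 1 cell. Bst2 (1.62) alone of 7 interferon and MHC class I genes was higher. Glycolysis and hypoxia genes had a median of -0.84, with 1 of 11, Pfkl (-1.28), at least 2-fold lower and Gapdh at 953 against 1860 CPM (-0.96). Of 21 cell cycle genes 2 had enough counts, and Stmn1 was lower (-2.35).

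**Figure D5:**
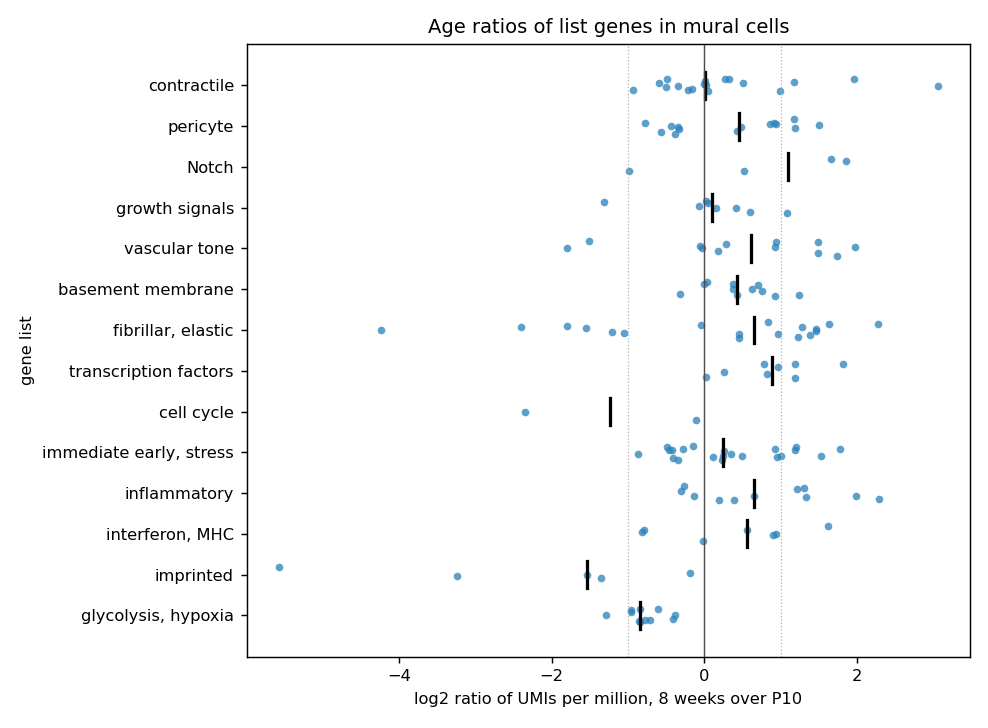
Log2 ratio of 8 weeks over P10 in mural cells for the counted members of each gene list, with the list median as a black bar; each point is 1 gene and dotted lines mark a 2-fold difference. The contractile list centred on 0.01, the imprinted list on -1.53 and the glycolysis and hypoxia list on -0.84.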

How the data were processed

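Droplet-based single-cell RNA counts of mouse discs were analysed from 1 gene matrix and 1 matrix of added sequences (TDT, WPRE4, CRE, EGFP and spike-ins) per age. The values are UMI counts as the authors deposited them; the deposited feature and barcode lists hold other content, namely names. Cell Ranger 3.1.0, Seurat 3 and the builds mm10 and GRCm38 are named per the submitters' processing notes, with no role given for Seurat. The 4 samples listed per age cannot be separated within a matrix, so each age is 1 library, and whether the samples came from separate animals is not given in the sources used here. The libraries share 12 barcodes, none of them of a mural cell.

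Filters asked for 500 or more genes and 1000 or more UMIs per cell, with no more than 15% of them mitochondrial, and mural cells were chosen by the rule stated above. Mural members, gene lists and the rule for named genes were chosen with earlier results of these data known. Levels are summed UMIs per 1000000 gene UMIs; intervals are exact 95% Poisson (levels), Clopper-Pearson (shares) and conditional binomial (ratios). Ratios were read for genes whose 2 sums held 50 or more UMIs together, and a difference was counted from 2-fold. For mural over other cells, the 50 UMIs were asked of mural cells of both libraries together, and genes of the rule were left out. A ratio against 0 UMIs was computed against 3 counts over the group and is a bound. Comparison sets were cells with at least 10 UMIs of Pecam1 and Cdh5 (endothelial), Matn1, Matn3 and Cnmd (chondrocyte), Pdgfra and Dpt (fibroblast) or Ptprc, Tyrobp, Fcer1g and S100a8 (immune), or at least 30 of Car3 (nucleus pulposus), without mural genes or markers of another set. The rule named the 12 highest and 12 lowest genes by age, 15 for mural over other cells, and 8 and 8 between marker classes. It ranked genes by whichever interval bound lay closer to 1 (by the lower library ratio for mural cells), with a UMI in at least 20% of cells and no cell holding most UMIs, and without mitochondrial, ribosomal, hemoglobin, predicted and sex-linked marker genes. It added up to 6 members of each list.

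Doublets were scored with Scrublet in scanpy 1.11.5 at an expected rate of 6%; it called no cell at P10, where it has not worked, so no cell was removed by it and a score limit of 0.25 was tried instead. Thinning drew each cell down to 2000 UMIs with a seed of 7. Promoters came from RefSeq (GRCm38.p6). Python 3.11.15, numpy 2.4.6, scipy 1.17.1, pandas 2.3.3 and matplotlib 3.10.9 were used, and the ratio and interval code was tested on simulated data. The reporter threshold, the split by WPRE4, the removal of collagen-rich cells and the ratios within marker classes were chosen after seeing the data.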

Additional observations from a re-analysis of the deposited data

Results flagged for a closer look

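In 4 matrix genes the ratio of 8 weeks over P10 had opposite signs in mural and in endothelial cells, and each of these differences was not tested. Fmod had a log2 ratio of -4.46 in mural and 3.33 in endothelial cells, and Col2a1 had -3.51 and 1.17. Dcn had -4.24 and 5.04, and Col1a2 had -2.40 and 4.18. In mural cells these values move with the 5 collagen-rich P10 cells described in the report; without them and the 1 such cell of 8 weeks, Fmod had -1.13, Col2a1 -1.76, Dcn 0.04 and Col1a2 1.16.

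In 3 genes the contrast of mural cells with at least 10 UMIs of WPRE4 over the other mural cells had opposite signs at the 2 ages, and the difference was not tested. The protein C receptor gene Procr had -2.53 at 8 weeks and 2.45 at P10, the chemokine gene Ccl2 had -4.72 and 1.15, and Rgs4, a regulator of G-protein signalling, had 1.17 and -1.50.

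CRE, the sequence of the recombinase, gave 4 UMIs at 8 weeks and 7 at P10 over all cells past the filters, and 0 in mural cells.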

How the results depend on the processing

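No paired analysis was possible because the numbered samples of an age share 1 matrix, and for the same reason no replicate could be left out. Age, library and the mix of marker classes move together, and counting error is the sole error given. Across 16 settings, 34 values or counts of the main comparisons moved and 121 did not. With a rule sum of at least 6 UMIs, the WPRE4 level of 8 weeks was 3115 CPM, and the log2 ratios of 8 weeks over P10 turned positive for Fmod (0.794), Col11a1 (0.344), Col1a2 (0.696) and Col1a1 (0.960). With cells that carry markers of other types kept, there were 67 and 93 cells at 8 weeks and P10, WPRE4 stood at 1795 and 1222 CPM, TDT at 20.4 and 13.95 CPM, and 1001 genes were higher and 322 lower at 8 weeks. In that setting 1051 genes were higher in mural than in other cells, and 193 higher and 554 lower in smooth muscle-marked cells. There Aqp1 had -0.87, Fmod 0.710, Col1a1 0.116 and Icam1 -0.58 by age, and between marker classes Col2a1 had 2.18 at P10 and Tagln -0.044, Eln -1.08 and Procr -0.42 at 8 weeks. Without the 2 P10 cells with doublet scores above 0.25, WPRE4 was 3526 CPM at P10, Col1a2 0.186 and Col1a1 0.633. Without the collagen-rich cells, WPRE4 was 3802 CPM at 8 weeks and 3587 at P10, Col1a2 1.16 and Col1a1 2.06. Scaling without abundant genes gave 173 genes higher and 236 lower by age (42.3% of calls higher, against 61.5% as reported) and moved the median of all genes to -0.15. A minimum of 20 UMIs gave 773 higher and 331 lower by age, 932 for mural over other cells, and 44 higher and 52 lower between marker classes. A minimum of 200 UMIs gave 40, 56, 112, 9 and 8 for the same counts, and thinning to 2000 UMIs gave 38, 61, 109, 7 and 5, since fewer genes reached the minimum. Smooth muscle-marked cells alone gave 118 higher and 90 lower genes by age, with Fabp4 at 1.07, and pericyte-marked cells alone 96 higher and 153 lower, with Igfbp5 at -0.88. Apart from the alternatives that change the number of genes or cells, the cause was not tested. The shares of mural cells with WPRE4 moved by less than their intervals in every setting run, from 48.57% to 56.7% at 8 weeks and from 49.46% to 59.5% at P10. Leaving out the cell of each age with most UMIs of a gene, run for the age ratios of named genes, moved 19 and turned none of 134. Over all settings, of the ratios of named genes by age 14 changed sign, 278 moved and 1753 did not, and of the list medians 10 moved and 186 did not.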

Other observations

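Some further genes, all but Klf2 outside the lists, also divided the 2 marker classes of mural cells in the same direction at both ages. Klf2 belongs to the early response and heat shock list. The genes were picked out after their values were seen and carry no test. In smooth muscle-marked against pericyte-marked cells, Ptp4a3, a tyrosine phosphatase gene, stood at 703 against 201 CPM at 8 weeks and 715 against 95.4 CPM at P10. Pcp4l1 had 448 against 129 and 739 against 214 CPM, the actin-depolymerizing factor gene Dstn 1059 against 362 and 972 against 363 CPM, and the cell cycle inhibitor gene Cdkn1a 742 against 113 and 659 against 279 CPM. The flow-responsive transcription factor gene Klf2 had 518 against 104 and 763 against 282 CPM, and the nuclear receptor gene Nr4a2 448 against 24.1 and 522 against 176 CPM.

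Higher in the pericyte-marked cells were surface and matrix genes. Thy1, a surface glycoprotein gene of stromal cells, had 317 against 643 CPM at 8 weeks and 56.2 against 363 CPM at P10. Adgrf5, an adhesion G-protein-coupled receptor gene, had 147 against 402 and 8.03 against 198 CPM, Ltbp4, which binds latent TGF-beta, 247 against 546 and 16.1 against 198 CPM, and the leucine-rich proteoglycan gene Aspn 340 against 755 and 193 against 565 CPM. The heme oxygenase gene Hmox1 had 332 against 731 and 329 against 992 CPM, and the interferon regulatory factor gene Irf1 240 against 579 and 72.3 against 351 CPM. The early response gene Fos did not keep its direction, with 2218 against 1093 CPM at 8 weeks and 80.3 against 1054 CPM at P10; this difference between ages was not tested.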
